A study of Rattus norvegicus with 4 samples.

Results

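The enzymes and related proteins that add methyl groups to histone lysines, or take them off, were followed in cultured neonatal rat ventricular cardiomyocytes with and without phenylephrine (PE). Members were the protein-coding genes whose symbols begin with Kdm, Kmt, Prdm, Smyd or Nsd and a digit, with Setd, Ehmt, Suv39h or Dot1l, or with Ezh1 or Ezh2. The rule found 64 of the 32883 genes in the deposited tables, and 60 of them, with 59 symbols, had a summed count of at least 15 over the 4 libraries. Kdm5d, Prdm12 and Prdm14 had no read in any library, which allows a level of at most 0.0535 to 0.0658 CPM (counts scaled to library size) in a library, taking 3 counts as the limit and counting error only. That limit holds only if reads of these genes could be counted. The collagen gene Col1a2, for example, had a summed count of 8 beside 939392 for Col1a1, and the cause was not tested. Prdm13, with a summed count of 10, was the member just under the minimum, and Kdm4d, with 39, was the lowest above it. Kdm4d, at 9 and 12 counts in the controls and 10 and 8 in the PE libraries, was too low to be tested, which left 59 tested members.

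The cells came from cardiac ventricles of Sprague-Dawley rats at postnatal day 2. They were plated once so that other cells would attach and be discarded, and were then grown in medium with serum. Control cells received no PE, and treated cells received 20 µM PE, an alpha-adrenergic agonist that induces hypertrophic growth of cardiomyocytes in culture, for 24 h. Each group had 2 libraries of rRNA-depleted RNA read with strand information, and since the labels do not say that these were separate cultures, the p-values measure the spread between the libraries only, which may be technical.

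Methyl groups on lysines of histone H3 and H4 mark the state of chromatin. Methylation of H3 lysine 4 (H3K4) is found at active promoters and enhancers, that of H3K36 and H3K79 along transcribed genes, and that of H3K9, H3K27 and H4K20 in silent or compacted chromatin. Most writers carry a SET domain, DOT1L being an exception. The erasers are the amine oxidases of the KDM1 family and the JmjC-domain enzymes, which depend on iron and 2-oxoglutarate. In heart muscle, Smyd1 is a muscle-restricted member needed for cardiac development, and Ezh2, Kdm4a and Kdm6b have been studied in heart growth and disease.

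Library totals ran from 45637881 to 56948370 counts. The members held 0.592% and 0.566% of the reads counted in the controls, and 0.502% and 0.524% of those in the PE libraries. Cardiomyocyte markers summed to 33130 and 32210 CPM in the controls and 43110 and 46300 CPM with PE, and none of the 11 in the table was at 0. Of these 11, 3 were called higher, or 27.3%, against 7.39% of all tested genes, and none lower. Negative values were found in 5, 4 of them with both PE libraries under both controls. These 4 made 36.4%, against 28.1% of all tested genes. Both PE libraries lay over both controls in 5 other markers, or 45.5%, against 28.5%. Actc1, cardiac actin, gave most of the rise in the sum, from 4954 and 4378 CPM in the controls to 13090 and 13790 CPM with PE. The 2 controls differed more from each other than the 2 PE libraries did, and transcripts of the mitochondrial genome were 6.19% and 11.7% of the control reads but 4.61% and 4.76% of the PE reads.

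Among the 59 tested members, 4 fell with PE and none rose. They were Kdm6b, an H3K27 demethylase, Setd1b, an H3K4 methyltransferase, and the PRDM-family genes Prdm1 and Prdm9. The share called, 6.78%, stands beside 15.7% of the 15257 genes tested, of which 7.39% were called higher and 8.3% lower. The call was an adjusted p under 0.05 in edgeR's quasi-likelihood test. At an unadjusted p under 0.05, 4 members were higher and 8 lower in that test, or 20.3% together against 28.8% of all tested genes, and DESeq2 also called 0 higher and 4 lower. Most of the family lay close to no change: the median log2 fold change (PE over control) was -0.12, against -0.01 over all tested genes, and the median absolute log2 fold change was 0.20 against 0.30. The 95% interval of the change stayed within 2-fold in either direction for 50 of the 59 members and within 1.5-fold for 30, while 62.8% of all tested genes had an interval within 2-fold. Members were also counted more deeply, with a median summed count of 12576 against 3492 over all tested genes.

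**Figure D1:**
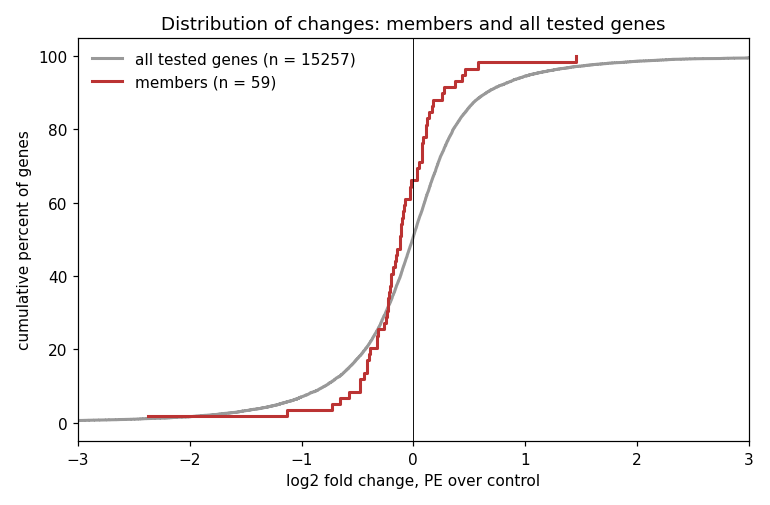
Cumulative percent of genes (vertical axis) at or below each log2 fold change of PE over control (horizontal axis), for the 59 tested members and all 15257 tested genes. The members' curve is steeper and lies to the left in its middle, with medians of -0.12 and -0.01, and both axes are linear; genes beyond 3 in either direction are outside the plotted range.

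Negative values outnumbered positive ones, with 39 of 59 members below 0, or 66.1%, against 50.7% of all tested genes. Both PE libraries lay under both controls in 25 members, or 42.4%, against 28.1% of all tested genes, and over both controls in 11, or 18.6%, against 28.5%. The summed level of the 60 members was 5725 and 5666 CPM in the controls and 5092 and 5334 CPM with PE. By family, the SET, PRDM and DOT1L genes summed to 4068 and 4131 CPM in the controls and 3595 and 3795 CPM with PE. The KDM genes summed to 1656 and 1536 CPM and to 1497 and 1539 CPM, so their groups overlapped. These sums are dominated by genes with long transcripts and many reads, such as Kmt2d.

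**Figure D2:**
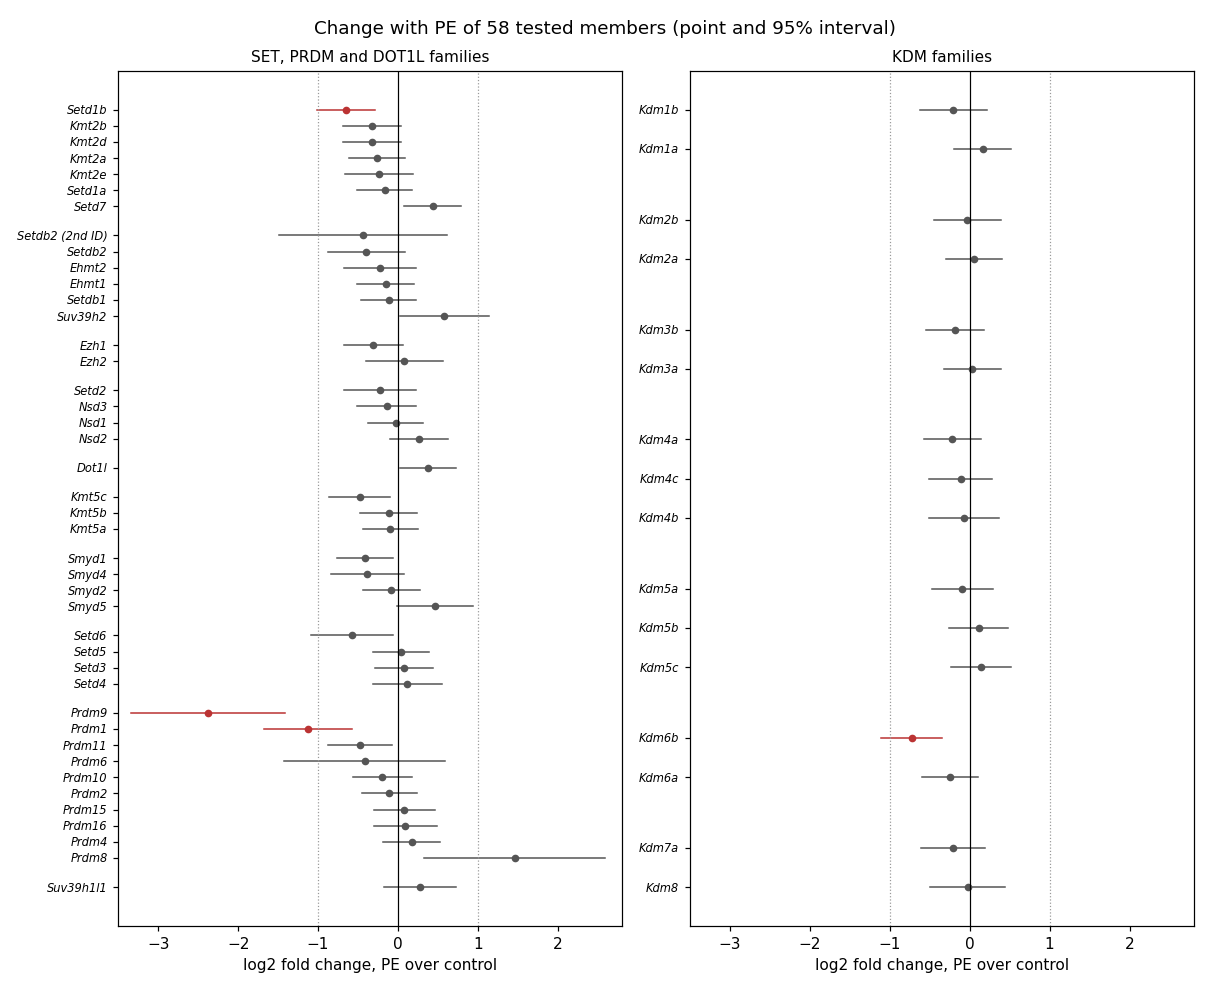
Log2 fold change of PE over control (horizontal axis, point) with its 95% interval (line) for 58 of the 59 tested members, grouped by role from top to bottom, with writers and related proteins on the left and KDM genes on the right. Red marks the 4 called members, Setd1b, Prdm9, Prdm1 and Kdm6b, all left of 0, and dotted lines mark a 2-fold change; most of the other points lie between them.

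Kdm6b (ENSRNOG00000037613), which removes methyl groups from H3K27 and is known as an inducible gene, had 155 CPM in control replicate 1 and 132.5 CPM in control replicate 2. With PE it had 80.0 CPM in replicate 1 and 93.6 CPM in replicate 2. The PE libraries lay clearly under both controls, with a fall of 0.73 ± 0.17 on the log2 scale (SE, n = 2 libraries each; 95% interval -1.10 to -0.35; adjusted p = 0.0162). Its relative Kdm6a, the X-linked H3K27 demethylase, had 105 and 119 CPM in the controls and 94.6 and 95.1 CPM with PE, a log2 fold change of -0.24 ± 0.16 (adjusted p = 0.362), and was not called. The ratio of Kdm6b to Kdm6a counts was 1.47 and 1.11 in the controls and 0.846 and 0.984 with PE. Summed over both genes, the KDM6 level was 260.0 and 251 CPM in the controls and 175 and 189 CPM with PE.

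On the writing side of the same mark, Ezh1 and Ezh2 encode the alternative catalytic subunits of Polycomb repressive complex 2, Ezh2 being typical of dividing cells. Ezh1 was at 55.9 and 48.4 CPM in the controls and 40.3 and 43.6 CPM with PE, a log2 fold change of -0.31 ± 0.17 (adjusted p = 0.251). Ezh2 was at 13.7 and 20.3 CPM in the controls and 17.6 and 18.3 CPM with PE, so the PE libraries lay between the controls (log2 fold change 0.08 ± 0.21, adjusted p = 0.852). Neither was called. The Ezh2 to Ezh1 count ratio was 0.245 in control replicate 1 and 0.42 in control replicate 2, and 0.436 and 0.421 with PE, so control replicate 1 alone stood apart.

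Setd1b (ENSRNOG00000001337) encodes a catalytic subunit of a SET1/COMPASS complex, which methylates H3K4 at promoters. It was at 110 and 97.1 CPM in the controls and 62.2 and 69.1 CPM with PE. Again no PE library reached a control, and the fall was 0.66 ± 0.16 on the log2 scale (95% interval -1.02 to -0.29; adjusted p = 0.022). Setd1a, which encodes the alternative subunit of the same kind of complex, was at 148 and 139 CPM in the controls and 125 and 131 CPM with PE (log2 fold change -0.17, adjusted p = 0.535). The count ratio of Setd1b to Setd1a was 0.741 and 0.697 in the controls and 0.498 and 0.527 with PE.

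The H3K4 methyltransferase list has 7 tested genes, Kmt2e among them, of which 1 fell and 6 were not called. The share called was 14.3%, against 15.7% of all tested genes called and 8.3% called lower. Values were negative in 6, or 85.7%, against 50.7% of all tested genes, with a median of -0.26. Kmt2d, an enhancer H3K4 methyltransferase whose loss is known to disturb heart development, had 690.5 and 641 CPM in the controls and 508 and 557 CPM with PE. The groups did not overlap, but the log2 fold change of -0.32 ± 0.16 was not called (adjusted p = 0.229). Kmt2b, a promoter enzyme, was at -0.33 ± 0.16 and Kmt2a, the MLL gene, at -0.26 ± 0.16 (adjusted p = 0.216 and 0.316). Kmt2e, a SET-domain protein without established methyltransferase activity, was at 236 and 332.5 CPM in the controls and 237 and 246 CPM with PE, where control replicate 2 alone was high. Setd7, which methylates H3K4 and many other proteins, was the member of this list with a positive value, at 36.8 and 36.2 CPM in the controls and 49.9 and 48.6 CPM with PE. Its log2 fold change of 0.43 ± 0.16 was not called (adjusted p = 0.0972), although its groups were well apart. Kmt2c was not analysed here.

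Prdm1 (ENSRNOG00000000323), also known as Blimp1, is a repressor best known from plasma cells and germ cell precursors. Its counts were 196 and 163 in the controls and 95 and 76 with PE, or 3.65 and 3.58 CPM against 1.69 and 1.61 CPM. The replicates were nearly equal within each group, and the fall was 1.13 ± 0.25 on the log2 scale (95% interval -1.68 to -0.58; adjusted p = 0.0117). Prdm9 (ENSRNOG00000021493) encodes the H3K4 and H3K36 methyltransferase that places recombination sites in meiosis. It had 70 and 99 counts in the controls and 15 and 19 with PE, or 1.304 and 2.17 CPM against 0.267 and 0.403 CPM. Of the tested members it had the most negative value, and it fell by 2.38 ± 0.43 on the log2 scale or 5.19-fold (95% interval -3.34 to -1.41; adjusted p = 0.00438), and it rests on few reads.

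Of the 4 falls, Prdm9 was the one that passed in each of the 4 fits that left out a library, at log2 fold changes of -2.70 and -1.97 without control replicate 1 or 2 and -2.09 and -2.68 without PE replicate 1 or 2. Without PE replicate 1, Kdm6b was at -0.61 (adjusted p = 0.421), Setd1b at -0.58 (adjusted p = 0.468) and Prdm1 at -1.16 (adjusted p = 0.0582), and none of them passed. Without PE replicate 2 they were at -0.83, -0.73 and -1.09 and did not pass either (adjusted p = 0.16, 0.264 and 0.0741). With the replicate number as a block, Kdm6b and Setd1b kept their size and missed the threshold (adjusted p = 0.0564 and 0.105). In the authors' deposited table the same 4 members were called, with log2 fold changes of -0.72 for Kdm6b, -0.65 for Setd1b, -1.13 for Prdm1 and -2.38 for Prdm9 (adjusted p = 0.00169, 0.00431, 0.0103 and 0.000431).

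**Figure D3:**
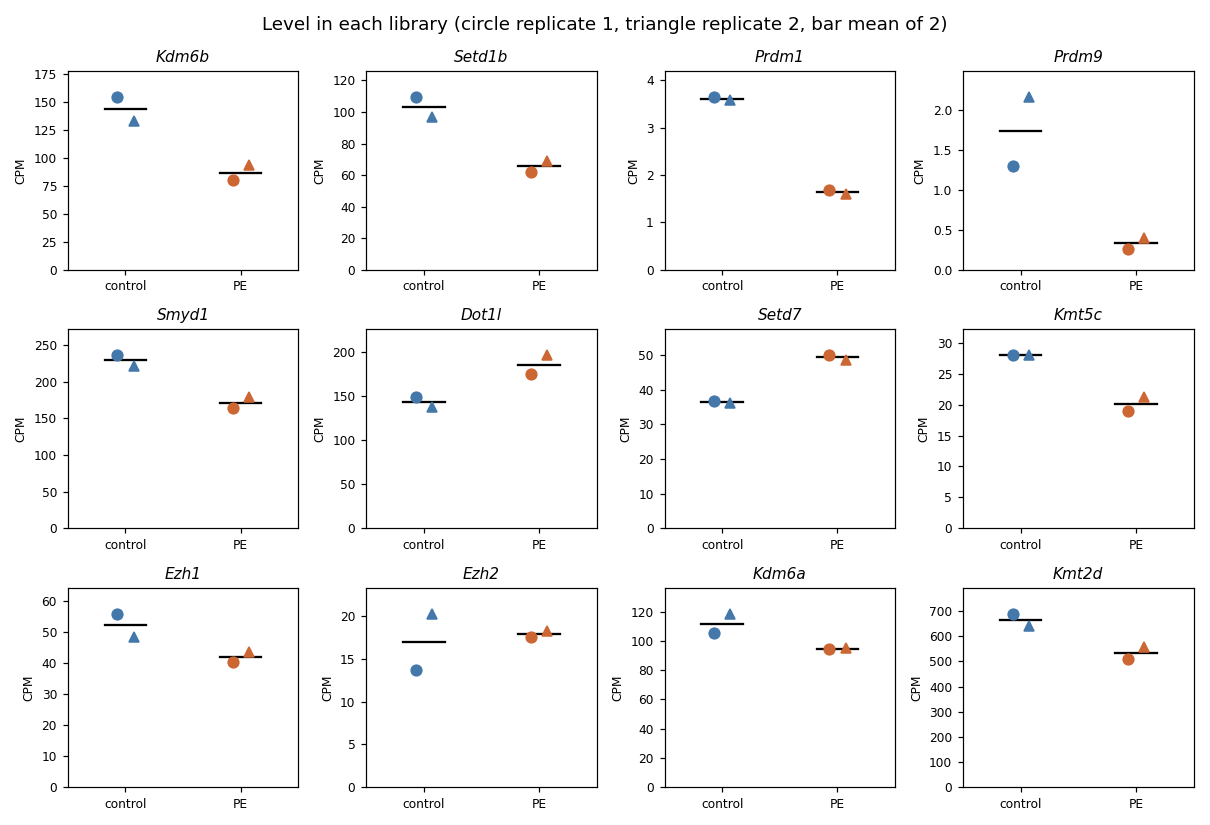
CPM (vertical axis, from 0, a scale for each panel) of 12 members in the 2 control and 2 PE libraries, with replicate 1 as a circle, replicate 2 as a triangle and the mean as a bar. The top row holds the 4 called members, with both PE libraries under both controls; the groups of Ezh2 in the bottom row overlap.

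To set the 4 genes that fell side by side, the 250 bases before their annotated starts are shown, from RefSeq promoter sequences of the build GRCr8, which differs from the build Rnor_6.0 of the counts. The windows are chr10:54641015-54641264 for Kdm6b, chr12:39081872-39082121 for Setd1b, chr20:49564089-49564338 for Prdm1 and chr1:65198738-65198987 for Prdm9, all upstream of the first exon and on the minus strand, each written 5′ to 3′ along its gene. Capitals mark matches, on either strand, to short motifs of general promoter factors and of factors known in heart muscle, which are spelled out after the sequences.
Kdm6b: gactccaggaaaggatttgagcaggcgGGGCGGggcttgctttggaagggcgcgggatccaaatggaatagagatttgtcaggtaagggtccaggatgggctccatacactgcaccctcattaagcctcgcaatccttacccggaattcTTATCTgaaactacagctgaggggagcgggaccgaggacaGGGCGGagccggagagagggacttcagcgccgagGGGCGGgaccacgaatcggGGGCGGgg
Setd1b: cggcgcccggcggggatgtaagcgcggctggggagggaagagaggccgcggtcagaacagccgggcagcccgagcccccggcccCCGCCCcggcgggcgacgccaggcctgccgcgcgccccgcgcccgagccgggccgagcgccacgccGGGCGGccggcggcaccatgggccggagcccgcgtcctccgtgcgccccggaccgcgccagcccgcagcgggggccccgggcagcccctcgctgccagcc
Prdm1: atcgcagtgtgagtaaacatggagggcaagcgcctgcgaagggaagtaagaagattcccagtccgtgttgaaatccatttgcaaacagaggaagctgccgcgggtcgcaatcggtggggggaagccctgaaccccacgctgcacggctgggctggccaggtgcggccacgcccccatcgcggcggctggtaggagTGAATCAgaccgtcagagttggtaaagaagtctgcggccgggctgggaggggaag
Prdm9: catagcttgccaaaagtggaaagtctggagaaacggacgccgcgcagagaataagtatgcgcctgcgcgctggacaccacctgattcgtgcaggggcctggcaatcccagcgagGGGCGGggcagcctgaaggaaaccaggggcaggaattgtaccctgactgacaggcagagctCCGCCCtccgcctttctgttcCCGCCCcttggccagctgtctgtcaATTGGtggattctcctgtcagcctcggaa

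Kdm6b held 4 GC boxes and 1 GATA site, Setd1b 2 GC boxes, Prdm9 3 GC boxes and 1 CCAAT box, and Prdm1 1 AP-1 site. The GC box, spelled GGGCGG and bound by Sp-family proteins, was present in 66.0% of the 47 member promoters in the table, in 58.1% of the 10357 promoters of tested genes and in 32.4% of all 27457. In the same order, the AP-1 site (TGA and TCA with any base between) was present in 8.51%, 4.4% and 6.36%. For the GATA site, AGATAA, the shares were 4.26%, 5.52% and 10.0%, and for the CCAAT box, named by its own letters, they were 46.8%, 35.1% and 34.3%. The remaining motifs had no match in the 4 windows: the TATA box, TATAAA, was present in 4.26% of member promoters and 6.65% of those of tested genes. The cyclic AMP response element, TGACGTCA, was present in 2.13% and 2.78%, and the E-box, written as CACGTG, in 8.51% and 7.93%. The MCAT site of muscle genes, which reads CATTCC, was present in 6.38% and 9.94%. No member window held the CArG box or the MEF2 site, which occurred in 1.17% and 0.367% of the promoters of tested genes. No marked match overlapped another, and a match describes letters and no binding. The Setd1b window was 84.8% G and C with 42 CpG dinucleotides, against 16 for Kdm6b, 18 for Prdm1 and 14 for Prdm9. Over the 47 member windows the median was 21 CpG, against 16 for tested genes. Smyd1 had the fewest of the members, 2, and Nsd2 the most, 49. Ezh1, Kdm6a, Kmt2a, Kmt2d, Kmt2e, Nsd3, Prdm6, Prdm8, Setd5, Setd7 and Suv39h1l1 were among the members with no entry.

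Genes within 2 places of the 4 in GRCr8 gave the following values. Beside Kdm6b, Tmem88 was at -0.52 ± 0.30 (adjusted p = 0.284), and the gene beyond Dnah2, Efnb3, fell by 0.71 ± 0.16 on the log2 scale (adjusted p = 0.0126), while Cyb5d1, on the other side, was at -0.16 and not called. Next to Prdm1, Atg5 was at 0.14 and Prep at 0.35 (adjusted p = 0.659 and 0.233), and Popdc3, beyond Prep, fell by 0.69 ± 0.20 on the log2 scale (adjusted p = 0.0433). Near Prdm9, Pdcd2 and Tbp were at -0.16 and -0.17 (adjusted p = 0.623 and 0.611). Near Setd1b, Rhof was at 0.04, Tmem120b at 0.31 and Psmd9 at 0.22 (adjusted p = 0.935, 0.403 and 0.496). The other neighbours have no value here. In that assembly 29 of the 59 matched members overlapped another gene and 12 a protein-coding one. Kmt2d, Dot1l, Setd2, Smyd1, Ezh2 and Setd6 were among the 12. The counting's strand setting is not given in the sources used here, so reads could be shared there. Kdm6b, Setd1b and Prdm1 overlapped no gene, and Prdm9 overlapped 1 gene that is not protein-coding.

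PRDM proteins mostly join zinc fingers to a SET-like domain. Of 11 tested genes, 2 fell and 9 were not called, with a median of -0.11. The share called was 18.2%, against 15.7% of all tested genes called and 8.3% called lower. Prdm16, a cardiac and brown fat regulator, had 46.3 and 42.6 CPM in the controls and 41.6 and 52.9 CPM with PE, so the groups overlapped. Prdm11 was at 34.9 and 28.2 CPM in the controls and 21.9 and 23.4 CPM with PE (log2 fold change -0.48 ± 0.18, adjusted p = 0.103), with both PE libraries under both controls. Prdm8 had the largest positive value, with 12 and 14 counts in the controls and 31 and 43 with PE, a log2 fold change of 1.46 ± 0.51 with a wide 95% interval of 0.33 to 2.58 (adjusted p = 0.083). It passed with no filter on low counts (adjusted p = 0.046) and with a crossed replicate block (adjusted p = 0.0376). The crossed block was chosen after seeing the data and called 30.7% of all tested genes, against 15.7% without a block. DESeq2 and the replicate block did not call Prdm8 (adjusted p = 0.189 and 0.106). Prdm6, at 60, 25, 36 and 29 counts, differed most between the controls (log2 fold change -0.42 ± 0.45, adjusted p = 0.600).

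None of the 6 tested H3K9 methyltransferase identifiers was called in edgeR, and 1 had an unadjusted p under 0.05. That gene was Suv39h2, a heterochromatin enzyme, at 2.27 and 2.94 CPM in the controls and 3.55 and 4.24 CPM with PE (log2 fold change 0.58 ± 0.25, adjusted p = 0.157). Suv39h1l1, the table's name for the Suv39h1-like gene, was at 0.27 ± 0.20 (adjusted p = 0.422). Ehmt1 and Ehmt2, the partners GLP and G9a that dimethylate H3K9, were at -0.16 ± 0.16 and -0.23 ± 0.20 (adjusted p = 0.569 and 0.521). Ehmt2 was at 115 CPM in control replicate 1 and 76.4 CPM in control replicate 2, with the PE libraries at 78.0 and 85.2 CPM, so control replicate 1 alone was high. Setdb2 is split over 2 identifiers, at -0.40 and -0.44, neither called, and both overlap Cab39l in GRCr8.

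Writers of H3K36, H3K79 and H4K20 were not called in edgeR. Setd2, which makes H3K36 trimethylation during elongation, was at 217 and 323 CPM in the controls and 237 and 224 CPM with PE, with control replicate 2 alone high (log2 fold change -0.23 ± 0.20, adjusted p = 0.510). Nsd1, Nsd2 and Nsd3, which make the lower methylation states of H3K36, were at -0.03, 0.26 and -0.14. Dot1l, the H3K79 methyltransferase, was at 149 and 138 CPM in the controls and 175 and 197 CPM with PE. Its groups did not overlap, and its log2 fold change of 0.37 ± 0.16 was not called (95% interval 0.02 to 0.73; adjusted p = 0.153). Kmt5c, which makes H4K20 trimethylation, was at 28.0 CPM in both controls and 18.9 and 21.2 CPM with PE (log2 fold change -0.48 ± 0.17, adjusted p = 0.0878). Kmt5a and Kmt5b, which make the lower states of H4K20, were at -0.10 and -0.12. At an unadjusted p under 0.05, Dot1l and Kmt5c stood out among these 8 genes, and DESeq2 called neither (adjusted p = 0.153 and 0.0864).

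The SMYD genes join a SET domain to a MYND zinc finger. Smyd1 was at 236 and 222 CPM in the controls and 163.5 and 179 CPM with PE, under both controls, with a log2 fold change of -0.42 ± 0.16 that was not called (95% interval -0.77 to -0.07; adjusted p = 0.106). Smyd5 was at 21.6 and 14.8 CPM in the controls and 23.4 and 26.7 CPM with PE, where the controls were further apart than the nearest libraries of the groups (log2 fold change 0.46 ± 0.21, adjusted p = 0.183). Smyd2 and Smyd4 were at -0.08 and -0.38, and Smyd3 was not analysed here. Among other SETD genes, Setd3, which methylates actin on a histidine, was at 0.08 ± 0.16 and Setd5 at 0.03 ± 0.16. Setd6, which methylates the NF-kappa-B subunit RelA, was at 10.1 and 7.02 CPM in the controls and 5.47 and 6.08 CPM with PE (log2 fold change -0.57 ± 0.23, adjusted p = 0.128). Setd6 overlaps Cnot1 in GRCr8.

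Apart from Kdm6b, the demethylases lay in a narrow band. Of 16 tested, 1 fell, or 6.25%, against 15.7% of all tested genes called and 8.3% called lower. The other 15 were not called and had values from -0.24 for Kdm6a to 0.16 for Kdm1a. For 15 of the 16 the 95% interval stayed within 2-fold. Kdm1a, the LSD1 amine oxidase that acts on H3K4, was at 64.6 and 61.4 CPM in the controls and 73.0 and 68.1 CPM with PE (log2 fold change 0.16 ± 0.16, adjusted p = 0.556). Kdm1b, its relative, was at -0.20 ± 0.19 (adjusted p = 0.532). Kdm3a, an H3K9 demethylase that responds to low oxygen, had 73.3 and 82.7 CPM in the controls and 81.4 and 78.0 CPM with PE, overlapping fully (95% interval -0.33 to 0.39). Kdm4a, which acts on H3K9 and H3K36, was at 117 and 104 CPM in the controls and 95.5 and 95.3 CPM with PE (log2 fold change -0.21 ± 0.16, adjusted p = 0.423).

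The H3K36 demethylases Kdm2a and Kdm2b were at 0.05 and -0.03, and Kdm3b at -0.18. Kdm4b and Kdm4c were at -0.07 and -0.11. The H3K4 demethylases Kdm5a, Kdm5b and Kdm5c were at -0.09, 0.11 and 0.14, with overlapping groups for all 3. Kdm7a, which acts on H3K9 and H3K27, was at -0.21 and Kdm8 at -0.02. In these genes a change of 2-fold lay outside the 95% interval, and in all but Kdm7a so did a change of 1.5-fold. Changes inside the intervals could not be told from none.

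**Figure D4:**
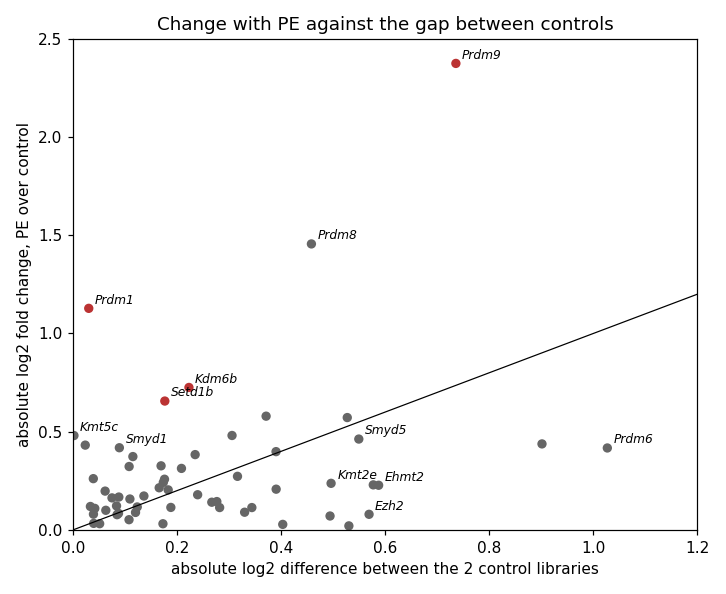
Absolute log2 fold change of PE over control (vertical axis) against the absolute log2 difference between the 2 control libraries (horizontal axis) for the 59 tested members, with the line of equality. The 4 called members (red) lie above the line, with Prdm1 at a control gap of 0.03; Ezh2, Ehmt2, Kmt2e, Smyd5 and Prdm6 lie under it.

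The spread between libraries set which of these values could be told apart. In 41 of 59 members, or 69.5%, against 69.1% of tested genes with reads in every library, the controls differed more than the PE libraries did, with median absolute log2 differences of 0.18 and 0.09, against 0.30 and 0.16 over those genes. The change with PE was larger than both gaps in 32 of the 59, or 54.2%, against 44.7% of those genes. Gaps over 0.5 on the log2 scale occurred between the controls in 9 members, or 15.3%, against 25.4% of those genes, and between the PE libraries in 3, or 5.1%, against 11.5%. With 1 library left out, 18 members changed sign, none of them a called one. Ehmt2, Ezh2 and Prdm6 stood at 0.10, -0.17 and 0.20 without control replicate 1, and Setd2 and Kmt2e at 0.09 and 0.03 without control replicate 2.

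Genes of partner subunits and related chromatin proteins had a median log2 fold change of 0.01. Of 58 tested values 33, or 56.9%, were above 0, against 49.3% of all tested genes. No subunit among 13 of COMPASS-type complexes or 10 of Polycomb repressive complex 2 was called in edgeR, with 3 and 2 at an unadjusted p under 0.05. Dpy30, a shared COMPASS subunit, was at -0.46 ± 0.20 (adjusted p = 0.169), and Phf1, an accessory Polycomb subunit, at -0.56 ± 0.18 (adjusted p = 0.0645). The Polycomb complex list had 8 of 10 values above 0, or 80%, and the COMPASS list 4 of 13, or 30.8%, beside the 49.3% of all tested genes. Some signs rest on very small values: Eed and Mtf2 were at 0.004 and 0.002 in the Polycomb list, and Ash2l at -0.02 in the COMPASS list. Of 7 tested arginine methyltransferases none was called, with 1 at an unadjusted p under 0.05, Prmt3 at 0.48 ± 0.18 (adjusted p = 0.103). Mecom, a PRDM relative, had the largest absolute value among 3 lysine methyltransferases outside the naming rule, at -0.18, with none called and none at an unadjusted p under 0.05.

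Of 7 other JmjC and PHF genes, 1 rose. Jmjd6, a JmjC oxygenase, was at 24.3 and 24.8 CPM in the controls and 36.04 and 37.9 CPM with PE (log2 fold change 0.59 ± 0.16, adjusted p = 0.0345). That call was lost when either PE library was left out (adjusted p = 0.346 without replicate 1, adjusted p = 0.433 without replicate 2), with the replicate number as a block (adjusted p = 0.169), and with library sizes alone (adjusted p = 0.05). Of 18 tested HP1 and Polycomb reader genes, 1 rose and 1 fell. Pcgf2, not called in edgeR, was at -0.55 ± 0.17 (adjusted p = 0.0506), with both PE libraries under both controls. The authors' deposited DESeq2 comparison called it lower (adjusted p = 0.0305). Pcgf5, a ring-finger subunit of Polycomb repressive complex 1, was at 29.1 and 27.1 CPM in the controls and 55.4 and 48.7 CPM with PE, a rise of 0.89 ± 0.17 (adjusted p = 0.00494) that was not called without PE replicate 1 (0.80, adjusted p = 0.143). Cbx7, a Polycomb chromodomain gene, fell by 0.98 ± 0.25 on the log2 scale, from 3.39 and 3.18 CPM to 1.76 and 1.57 CPM (adjusted p = 0.0265). Cbx7 did not pass without PE replicate 1 or 2 (adjusted p = 0.108 and 0.197). Together 2 of the 58 tested partner genes rose and 1 fell, or 5.17% against 15.7% of all tested genes. DESeq2 called 4 of the partner genes, and 12.4% of all genes with a value in its fit.

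Markers of other cell types differed between the groups as well, and in such bulk libraries fewer cells of a type and less RNA per cell cannot be told apart. Endothelial markers summed to 225 and 224 CPM in the controls and 135.5 and 141 CPM with PE. Of 8 tested, 5 were lower, and 2, Tek and Egfl7, had positive values. Macrophage and leukocyte markers summed to 342 and 387 CPM against 256 and 229 CPM, with 3 of 9 lower. Fibroblast markers summed to 18260 and 16410 CPM against 10110 and 10020 CPM. Of 8 tested, 3 were lower, and 3, Dcn, Lum and Tcf21, had positive values. Mesothelial markers summed to 210 and 172 CPM against 92.4 and 106.5 CPM, with 3 of 6 lower and 1, Krt19, at a positive value. Over all tested genes 8.3% were called lower. No marker in these lists was at 0 in every library, but Col1a2 had a summed count of only 8. The part of these cell types in the falls of Prdm1, Kdm6b, Setd1b and Prdm9 was not tested. Mural and smooth muscle markers, at 962 and 802 CPM against 843 and 996 CPM, had 1 higher and 1 lower of 7. Markers of dividing cells, which bear on Ezh2, Suv39h2 and Kmt5a, summed to 381 and 453 CPM in the controls and 446 and 440 CPM with PE. These sums overlapped, with Mki67 alone at 69.1 and 154 CPM in the controls. Of the 14 markers 2 were called higher, or 14.3%, against 7.39% of all tested genes, and none lower. The 14 had 12 positive values and a median of 0.275. Both PE libraries lay over both controls in 6 of them, or 42.9%, against 28.5% of all tested genes, and under both in none.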

How the data were processed

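RNA-seq counts of 2 control and 2 PE libraries were analysed, grouped by their titles. The authors deposited raw counts per gene. The submitters' processing notes list cutadapt 2.0, STAR 2.4.2a, featureCounts 1.6.4 and the build Rnor_6.0; tool settings, strandedness included, and the annotation release were not given in the sources used here. The other table the authors deposited is a DESeq2 comparison with a mean normalized signal, a log2 fold change, a test score and p-values per gene, per the file headers; gene names and types came from it.

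Counts were tested as deposited with edgeR 4.0.16 (limma 3.58.1, R 4.3.3), quasi-likelihood F test, TMM factors (0.982 to 1.03), default expression filter (minimum count 10, minimum total 15) and Benjamini-Hochberg adjustment over all 15257 tested genes; adjusted p under 0.05 was a call. Fit and intervals were run on simulated counts drawn with the same dispersion for every gene and group. Because the real controls spread more than the PE pair, that run does not check the fit for this case. CPM values use TMM-adjusted library sizes, SEs and 95% intervals come from the fitted model, and levels are not compared between genes because transcript lengths were not used. Replicates were not repeats of 1 library: chi-square divided by its degrees of freedom was 161 for the controls and 23.4 for the PE pair. Alternatives were DESeq2 1.42.0, other factors, filters and designs, and each library left out. Named genes were all called members, up to 2 with the largest absolute change in roles without a call, a fixed set of heart-related members, and called or leading partners; the remaining members are given by value or count. Members, lists and rules were chosen with earlier results of these data known. 1 member enters the counts and medians but is not reported here by name. Promoters were matched by Ensembl identifier or symbol, for 47 members.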

Additional observations from a re-analysis of the deposited data

How the results depend on the processing

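The same 4 members, and no other except Prdm8 where given below, were called with DESeq2, library sizes alone, upper-quartile factors, no filter, a filter of 1 CPM in 2 libraries, and mitochondrial-genome genes left out. Members called lower ranged from 1 to 13 and higher from 0 to 3 when 1 library was left out, as did calls over all genes (1205 to 4755) and among partner genes (0 to 19). A lone library was assumed to vary like the remaining pair; the controls differed more than the PE libraries did. No filter called 1 member higher (Prdm8) and 5 partner genes. The replicate block called 1964 genes and 2 members lower, Prdm1 and Prdm9; the labels do not say that a number pairs libraries. Same-numbered deviations correlated at -0.388 across genes, and a crossed replicate block, chosen after seeing the data, called 4677 genes, 4 members higher and 8 lower, and 14 partner genes. The members' median of -0.12 was -0.162 with library sizes alone, -0.143 with upper-quartile factors and from -0.146 to -0.0661 with a library left out. The median of all tested genes was -0.05 with library sizes alone. The median was below 0 in 12 of the 17 role lists, and that count stayed within 1.5 times under every alternative run. Over all members and alternatives, 8 values lost a call, 28 gained one and 24, in 19 uncalled members, changed sign. With library sizes alone Kdm3a was at -0.014 and Setd5 at -0.0133, and Kdm8 was at 0.00311 with the replicate block and 0.00242 with the crossed one. With 1 library left out, values ran from -0.489 to 0.102 for Ehmt2, -0.172 to 0.392 for Ezh2, -0.214 to 0.194 for Kdm2b, -0.0464 to 0.122 for Kdm3a, -0.295 to 0.204 for Kdm4b, -0.269 to 0.07 for Kdm4c and -0.239 to 0.0862 for Kdm5a. They ran from -0.0183 to 0.268 for Kdm5b, -0.384 to 0.00239 for Kdm7a, -0.258 to 0.276 for Kdm8, -0.458 to 0.0339 for Kmt2e, -0.0691 to 0.0166 for Nsd1 and -0.27 to 0.00228 for Nsd3. The remaining ranges were -0.087 to 0.257 for Prdm16, -0.827 to 0.201 for Prdm6, -0.483 to 0.0898 for Setd2, -0.823 to 0.0716 for the second Setdb2 identifier and -0.179 to 0.016 for Smyd2. The cause was not tested. For low members such as Prdm6, Prdm8, Prdm9 and Kdm4d, depth limits the precision.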
